A study of Solanum tuberosum with 10 samples.

Results

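PGSC0003DMG400007387 is a potato gene that the study named a probable WRKY40 transcription factor after its closest protein match, and it was 1 of the 40430 features in the deposited expression table. The gene was picked by its identifier because its course over time in these same libraries was already known, so its values below are a description, and no test was made on them. It lies on chromosome 8 of the SolTub 3.0 genome, from 40861937 to 40864121 on the plus strand, a span of 2185 bp, and 0 other annotated features overlap it. The protein that the study gave as its best match has the RefSeq symbol LOC102599114.

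The material was in vitro wild-type potato (Solanum tuberosum L.) of cultivar Desirée, and the groups were ultrasonicated (US) and unsonicated control material collected at 0 h, 24 h and 48 h and then at 1 w and 4 w, with 1 library per group and 10 libraries in all. Single-node explants cut from plantlets 4 w old were laid on hormone-free medium, and the US groups were exposed to ultrasound of 35 kHz and 70 W for 20 min, while the controls were cut and cultured without it. Per the methods, the samples were explants up to 48 h and leaves, stems and roots of the regrown plantlets at 1 w and 4 w, whereas the labels name leaf throughout, so time and kind of material cannot be told apart. Per the methods, 3 biological replicates were pooled, and the labels speak of a single replicate. No difference between libraries therefore has a replicate check, and the intervals given below cover counting error only.

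WRKY proteins are plant transcription factors named after a conserved run of amino acids in their DNA-binding domain, with which they bind the W-box in the promoters of their targets. Many of them are themselves switched on quickly by wounding, pathogens and other stresses. In Arabidopsis thaliana, WRKY40 is induced by wounding and pathogens and acts mostly as a repressor, together with the related WRKY18 and WRKY60, in immune and abscisic acid signalling. All explants in this experiment, control and US alike, had been wounded when they were cut.

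Levels in RPM (reads per 1000000 reads of the library) were worked back to whole reads through the lowest value of each library. The library totals lay between 33850938 and 45899162 reads, and 3 reads, the limit used for a gene without reads, stood for 0.0654 to 0.0886 RPM. In 8 of the 10 libraries the most similar library was the same-time partner from the opposite treatment. US 48 h and control 24 h were instead nearest to each other (r = 0.97 across 20494 expressed genes). The 7 genes for chlorophyll a-b binding proteins taken from the study's differing genes, which mark green tissue, all had reads in every library, from 75 to 17019.

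The WRKY40 gene was at its highest directly after treatment, became scarce in both treatments, and had returned by 4 w in the controls but not in US plantlets. At 0 h it had 501 reads (13.7 RPM, 95% Poisson interval 12.6 to 15.0) in US explants, against 380 reads (11.2 RPM, 10.1 to 12.4) in control explants. At 24 h there were 209 reads (5.31 RPM, 4.61 to 6.08) in US, against 457 reads (9.96 RPM, 9.06 to 10.9) in the control. Both treatments were thus close together at the start, and on the deposited scale the control at 24 h was nearer to its 0 h level than US was.

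At 48 h the gene had 13 reads (0.315 RPM, 0.168 to 0.538) in US, against 89 reads (2.34 RPM, 1.88 to 2.88) in the control. At 1 w it had 13 reads (0.321 RPM, 0.171 to 0.549) in US, against 24 reads (0.59 RPM, 0.378 to 0.878) in the control. At 4 w it had 0 reads in US, with a Poisson upper limit of 0.0935 RPM, against 345 reads (7.53 RPM, 6.75 to 8.36) in the control. The limit of 3 reads stood for 0.076 RPM in US 4 w. The 1 w libraries were low in both treatments, and at 4 w only US was low, while the control was above US 24 h and every library of 48 h and 1 w. In bulk samples such as these, fewer cells that express the gene and less of its RNA per cell cannot be told apart.

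**Figure D1:**
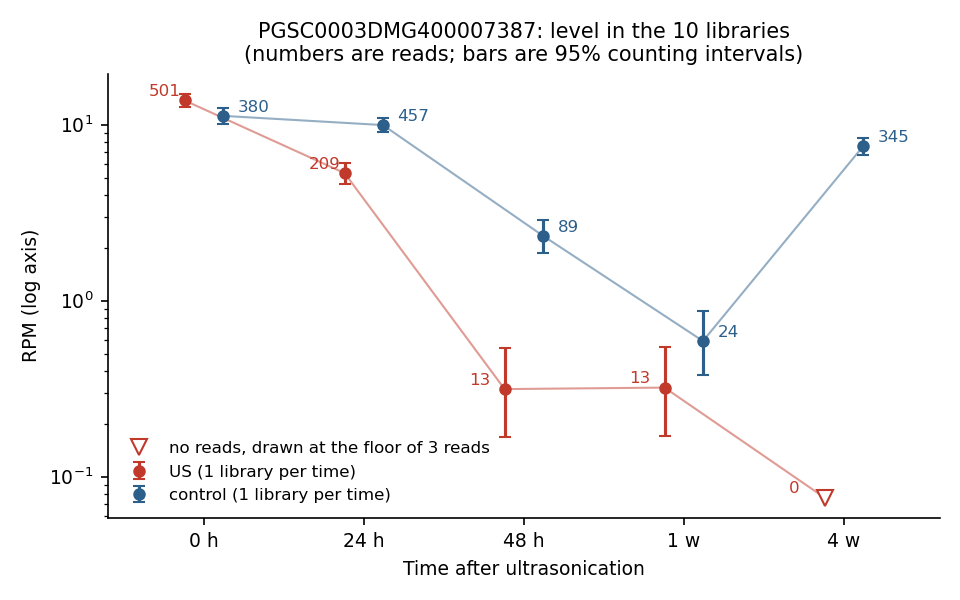
Level of PGSC0003DMG400007387 in RPM on a log axis over the 5 sampling times, with US in red and control in blue, 1 library per point, reads printed beside the points, and bars for the 95% Poisson interval. The curves start close together at 0 h, and US lies below the control from 24 h on. US is level between 48 h and 1 w, while the control declines to 1 w. The gap is widest at 4 w, where the US library had 0 reads (open triangle, drawn at the limit of 3 reads) and the control had 345.

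Ordered by level, US 0 h stood above control 0 h, whose ratio to control 24 h had an interval that included 1 (1.13-fold, 0.981 to 1.29). Below them came control 4 w, US 24 h and control 48 h, each apart from the next beyond counting error. Control 1 w, US 1 w and US 48 h followed, and neighbours among these 3 did not differ beyond counting error. US 4 w was the lowest, and its distance to US 48 h was 4.14-fold with US 4 w set at 3 reads (2.91-fold at the lower end of the exact interval).

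The pairwise comparison at each time asks how US material differed from control material of the same age. At 0 h the gene was 1.22-fold higher in US (95% exact conditional interval 1.07 to 1.40), a log2 difference of 0.29. At 24 h it was 1.88-fold lower in US (1.59 to 2.22), a log2 difference of -0.91. At 48 h the gene was 7.43-fold lower in US (4.13 to 14.5), a log2 difference of -2.89. The US level at 48 h rested on 13 reads, which is why this interval is wide. At 1 w the ratio of US to control was 0.544, and its interval (0.254 to 1.11) included 1, so no difference was detectable at this depth. At 4 w the gene was 99.0-fold lower in US with US set at 3 reads, a log2 difference of -6.63. The exact interval of 0 against 345 reads reached down to 80.1-fold.

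A fixed rule of size served as the yardstick across all features, with at least 1 RPM in the higher library and a log2 difference of at least 2 (4-fold). By this rule the gene was down-regulated in US at 48 h and at 4 w and not called at 0 h or 24 h (3.75% and 3.21% of features were called there in either direction), and at 1 w it stayed under 1 RPM in both libraries and was outside the rule. At 48 h 2.8% of 21785 features were lower in US by the rule, and at 4 w 3.03% of 21114 were. Since the gene was chosen from these contrasts, its calls are given beside those shares as a description. Among all features that the rule could judge, 216 (0.992%) had a lower log2 difference than the gene at 48 h. At 4 w 5 features (0.0237%) did so with the gene set at 3 reads, and 3 did so on the deposited scale. At 24 h 9.24% of 21414 features had a lower difference, and at 0 h 65.5% of 21236 had.

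The 48 h call is close to the lower end of what the rule can judge. The control level there was 2.34 RPM, so with a minimum of 4 RPM the 48 h comparison dropped out, while the 4 w comparison stayed with its call. US 48 h was also the library that stood nearest to control 24 h, and the part of this in the 48 h difference was not tested.

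The absence of reads in US 4 w was set beside the detection of other features. At the control level of 7.53 RPM, the US 4 w library would have held 296.9 reads of the gene. Of 20311 features with at least 1 RPM in control 4 w, 46 (0.226%) had 0 reads in US 4 w, and the WRKY40 gene had the most control reads of these 46, with 345 against 211 for the next and a median of 60. In the other direction, 26 of 20164 features (0.129%) had at least 1 RPM in US 4 w and 0 reads in control 4 w. Another 4504 features had control 4 w reads within 2-fold of the gene's, from 173 to 690, and their median in US 4 w was 329 reads. Of these, 25 had under 10 reads in US 4 w and 3 had 0.

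The US 4 w library had reads for 25761 features, against 25115 in control 4 w, and 2021 features with 1 to 5 reads, against 1206 in control 4 w. The summed level of the 7 chlorophyll a-b binding protein genes was 396 RPM in US 4 w, against 554 RPM in control 4 w. Of the 7, 5 had a ratio of US to control below 1 and 2 above it. The study had listed these genes for 1 w or 4 w. The one listed for 4 w, PGSC0003DMG400004301, had 33.2 RPM in US 4 w, against 121 RPM in control 4 w. The part of depth and of tissue composition in the 4 w difference was not tested. Of the 46 features, 13 had reads in all 9 other libraries, as the WRKY40 gene did. Only PGSC0003DMG400028703 and PGSC0003DMG400005082 had at least 1 RPM in all 9, with 203 and 149 reads in control 4 w.

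The course within each treatment shows when the changes took place. In US explants the gene fell from each early time to the next. At 24 h it was 2.59-fold lower than at 0 h (2.20 to 3.06), and at 48 h it was 16.9-fold lower than at 24 h (9.65 to 32.2). The step to 48 h passed the rule of size, as did 4.74% of 21715 features in the lower direction. Between 48 h and 1 w there was no detectable step, with a ratio of 1.02 (0.436 to 2.39). At 4 w the gene was 4.22-fold lower than at 1 w with 4 w set at 3 reads (2.97-fold at the lower end of the exact interval), and both of these levels were under 1 RPM. Across the whole US course, 4 w set at 3 reads was 181-fold below 0 h (146-fold at the lower end), a fall that passed the rule, as did 9.83% of 21405 features.

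In control explants the step to 24 h was smaller than in US. The ratio of 24 h to 0 h was 0.887 (0.772 to 1.02), with 1 inside the interval. The median of all features that could be judged shifted by 0.39 on the log2 scale over this step in the controls, and by 0.18 in US, so relative to that shift the control fell by more than the ratio itself says. Under quantile and TMM scaling the control step was -0.50 and -0.49 on the log2 scale, outside the counting interval of the deposited scale, and the US step was -1.66 and -1.53. At 48 h the gene was 4.26-fold lower than at 24 h (3.38 to 5.40), past the rule of size, as were 1.38% of 21741 features. At 1 w it was 3.96-fold lower than at 48 h (2.50 to 6.51), with a log2 difference of -1.99, just short of the rule.

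The controls then regained the transcript. At 4 w the gene was 12.8-fold higher than at 1 w (8.43 to 20.2), a log2 difference of 3.67 that passed the rule, as did 1.47% of 21701 features in the higher direction. A higher difference over this step was seen for fewer than 1 in 100 features, since 99.7% of them lay below the gene. Control 4 w then stood at 0.67 times control 0 h (0.578 to 0.778). Between 1 w and 4 w the direction of the gene thus differed between the treatments, with a rise in the control and a further fall in US.

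The study named 5 WRKY factors among its differing genes, including this one, and all 5 were chosen by it from these libraries, so their counts are no independent evidence. The other 4 had reads in all 10 libraries, down to 1 read in a single case. At 0 h and 24 h, 0 of the 5 passed the rule in either direction. At 48 h all 5 had a ratio of US to control below 1, with a median log2 difference of -1.41 against -0.07 over all features, and the WRKY40 gene alone was past the rule. At 1 w 3 of the 5 were down-regulated in US by the rule, against 1.17% of 21701 features, and the WRKY40 gene was not among them. These 3 were the ones that the study had listed for 1 w, while it had listed the WRKY40 gene and PGSC0003DMG400015015 for 4 w. The calls at 1 w and 4 w are therefore not independent of that choice. At 4 w the WRKY40 gene was again the only one called, with 2 of the 5 above and 3 below a ratio of 1 and a median of -0.84, or -0.13 without it.

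PGSC0003DMG400020608 on chromosome 3 was named as a probable WRKY70, which in Arabidopsis thaliana acts between salicylic acid and jasmonic acid defence signalling. It had 7468, 1715, 467, 153 and 619 reads over the 5 times from 0 h to 4 w in US, against 9761, 2572, 1190, 1492 and 1283 reads in the control. Its lowest US library was 1 w, where it was 9.71-fold lower than the control (8.22 to 11.6), and at 4 w it was 1.78-fold lower (1.62 to 1.97). Its course had the strongest correlation with that of the WRKY40 gene among the other 4, with r = 0.72 over the 10 libraries.

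PGSC0003DMG400029207 on chromosome 9 was also named as a probable WRKY70. It had 27137, 2820, 1311, 556 and 5542 reads over the same times in US, against 23405, 2833, 2490, 2725 and 4333 reads in the control. It was 4.88-fold lower in US at 1 w (4.46 to 5.36) and 1.49-fold higher in US at 4 w (1.43 to 1.55), so this gene came back in US plantlets where the WRKY40 gene did not. Its correlation with the WRKY40 gene was r = 0.45.

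PGSC0003DMG401031196 on chromosome 4 was named as a probable WRKY51, which in Arabidopsis thaliana takes part in the crosstalk between salicylic acid and jasmonic acid. It had 1628, 186, 72, 1 and 97 reads over the 5 times in US, against 1300, 324, 176, 118 and 386 reads in the control. Its scarcest library was US 1 w, where a single read gave a ratio of 0.00851 to the control (0.000214 to 0.0483). At 4 w it was 3.42-fold lower in US (2.73 to 4.32), under the rule of size, and r with the WRKY40 gene was 0.61.

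PGSC0003DMG400015015 on chromosome 7 was named as a probable WRKY31. It had 3267, 2645, 1445, 1048 and 5463 reads over the 5 times in US, against 1863, 3054, 1856, 1134 and 1603 reads in the control. Its log2 difference at 4 w was 1.98, just under the rule, with a 3.96-fold higher level in US (3.75 to 4.19). Among the 5 WRKY genes named by the study it was thus the farthest from the WRKY40 gene at 4 w, and r between them was -0.04.

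**Figure D2:**
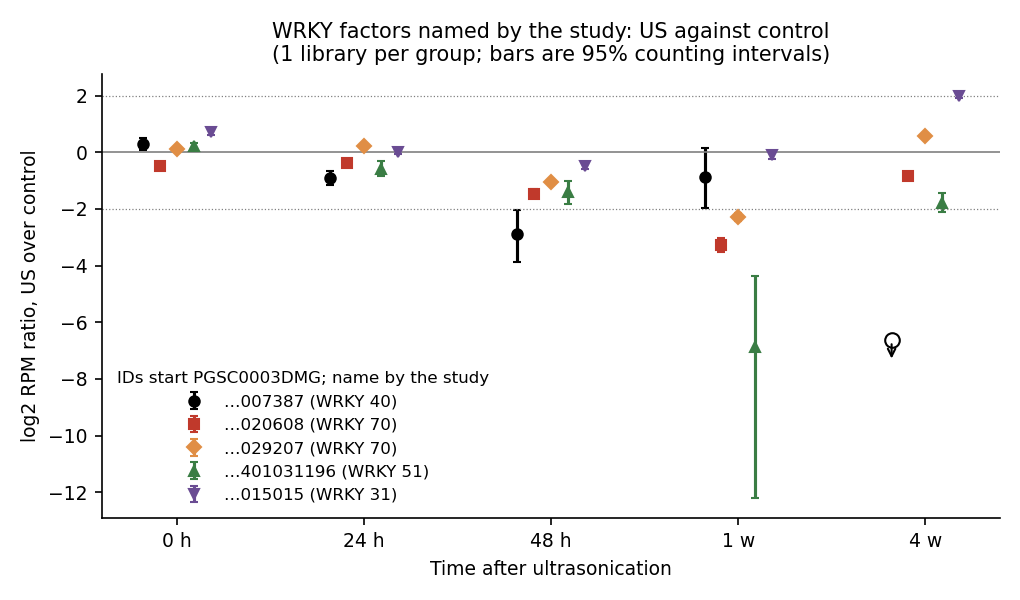
Log2 ratio of US to control RPM (vertical axis) at the 5 times for the 5 WRKY genes named by the study, 1 library per group, with bars for the 95% counting interval and dotted lines at the rule of size. All 5 lie below 0 at 48 h, and at 4 w the WRKY40 gene (open circle with arrow, an upper limit at -6.63) lies below the other 4, which range between -1.78 and 1.98.

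The other 9 transcription factors, taken from the genes that the study listed from these libraries, all had reads in US 4 w, from 79 to 4117. The NAC and PAR1 factors among them are not named in the paper's own text on transcription factors. At 4 w 4 of them were up-regulated in US by the rule, against 2.39% of all features, 1 was down-regulated, and the median log2 difference was 1.83 against 0.02 over all features. Every factor called here had been listed by the study for its difference at 4 w itself, so these values are no independent evidence. The ethylene-response factor PGSC0003DMG400002899 (ERF017) had 810 reads in US 4 w, against 66 in control 4 w. PGSC0003DMG400015760, a FAMA factor, which in Arabidopsis thaliana directs guard cell formation, had 1517 reads in US 4 w, against 142 in control 4 w. The ethylene-response factor PGSC0003DMG400022823 (ERF4-like) had 3035 reads in US, against 720 in the control, and the NAC factor PGSC0003DMG400002824 had 2649 reads in US, against 656 in the control.

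The exception was PGSC0003DMG400025144, named PAR1 after a repressor of shade responses in Arabidopsis thaliana, with 563 reads in US 4 w, against 3148 in control 4 w, 4.81-fold lower (4.40 to 5.27). Its course also had the highest correlation with that of the WRKY40 gene in this group (r = 0.59). A second FAMA-like gene, PGSC0003DMG400029634, had the lowest (r = -0.50). The ethylene-response factor PGSC0003DMG400013255 (ERF1B) was lower in US at 48 h and 1 w by the rule, with 58 and 21 reads in US, against 233 and 227 reads in the control. At 4 w it had 79 reads in US and 118 in the control, and the interval of its ratio included 1. The heat stress factor PGSC0003DMG400000380 and the NAC factor PGSC0003DMG400022134 were lower in US at 0 h by the rule, as were 2.06% of all features, a time at which the WRKY40 gene was 1.22-fold higher. The study had listed both factors for 0 h itself.

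Since WRKY factors are known for their part in defence, 22 defence genes were counted beside the WRKY40 gene. The grouping was made here, from genes that the study had listed from the same libraries. At 48 h 6 of the 22 were lower in US by the rule and 0 were higher, beside 2.8% and 1.39% of all features. At 4 w 11 were lower and 2 were higher, beside 3.03% and 2.39% of all features, with a median log2 difference of -2.66 against 0.02 over all features. Of the 11, 9 had been listed by the study for their difference at 4 w itself, as had the 2 higher ones. At 0 h 6 were lower and 2 higher, beside 2.06% and 1.7% of all features, and at 24 h 1 was lower and 2 were higher, beside 1.81% and 1.4%. At 24 h 17 of the 22 had a ratio of US to control above 1 and the median log2 difference was 1.47, while the WRKY40 gene was 1.88-fold lower. At 1 w 4 were lower, all of them protease inhibitors, and 1 was higher, beside 1.17% and 0.562% of all features, while the WRKY40 gene was outside the rule. All 8 protease inhibitor genes of the list, which are known to act against the digestive enzymes of herbivores, were among the 11 at 4 w, between 7.54-fold and 2053-fold lower in US. At 48 h 0 of these 8 passed the rule, although the WRKY40 gene did. The study had listed every gene of the 22 called at 24 h, and every one called lower at 1 w, for that same time. Most of those called at 0 h and 48 h had also been listed for that time. None of these counts is therefore independent evidence.

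The farthest fall at 4 w was that of a Kunitz-type inhibitor, PGSC0003DMG400010170, with 6 reads in US, against 14314 in the control. Proteinase inhibitor II, PGSC0003DMG400004547, had 541 reads in US, against 40677 in the control. The defensin-like PGSC0003DMG400024205 had 15 reads in US, against 916 in the control, and the abscisic acid-responsive TAS14 gene PGSC0003DMG400003530 had 20 reads in US, against 1752 in the control. The 2 that were higher in US were a lipoxygenase, PGSC0003DMG400010859, with 787 reads in US, against 72 in the control, and a beta-glucanase, PGSC0003DMG400020017, with 2558 reads in US, against 288 in the control. Several of the inhibitors carry the same name in the study's annotation. Per the methods only uniquely aligned reads were counted, so reads shared by near-identical copies would be missing and the levels of such genes are uncertain.

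The genes whose course over the 10 libraries was most like that of the WRKY40 gene were sought among the 20494 expressed genes. Pearson's r on log2 RPM was above 0.8 for 54 of the 20493 others, and the median was -0.11. The nearest 10 had r between 0.85 and 0.92, and the study named 0 of them. All points share their libraries and depth, so these r describe likeness only. The US 4 w value of the WRKY40 gene entered them as deposited, where a gene without reads stands for 0.9 reads. All 10 were lower in US than in the control at 4 w, as the choice by likeness favours, and 4 of them passed the rule there, beside 3.03% of all features.

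Likeness of shape did not mean likeness of size. The first of the 10, PGSC0003DMG400026241 on chromosome 8 (r = 0.92), spanned 1.35 log2 units from its highest to its lowest library, against 7.50 for the WRKY40 gene. In these spans counts under 3 reads were set at 3. PGSC0003DMG400026241 had 2789 reads in US 4 w, against 5339 in control 4 w. PGSC0003DMG400021407 on chromosome 2 (r = 0.88) spanned 7.55 units and followed the WRKY40 gene more closely in size. It had 545, 206, 6, 30 and 5 reads in US from 0 h to 4 w, against 806, 164, 68, 16 and 63 reads in the control. PGSC0003DMG400001287 spanned 9.60 units with US 4 w set at 3 reads, and had 2 reads there, against 43 reads in control 4 w.

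PGSC0003DMG400012653 on chromosome 2 (r = 0.86) had 80 reads in US 4 w, against 1150 reads in control 4 w, and its highest library was US 24 h with 14157 reads. PGSC0003DMG400021406 (r = 0.85) lies beside PGSC0003DMG400021407 and had 194 reads in US 4 w, against 1446 in control 4 w. The list hung on single libraries. Without US 4 w the same 10 genes still had r between 0.76 and 0.89, but 0 of them were among the nearest 10, and with Spearman's correlation 1 of them was.

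**Figure D3:**
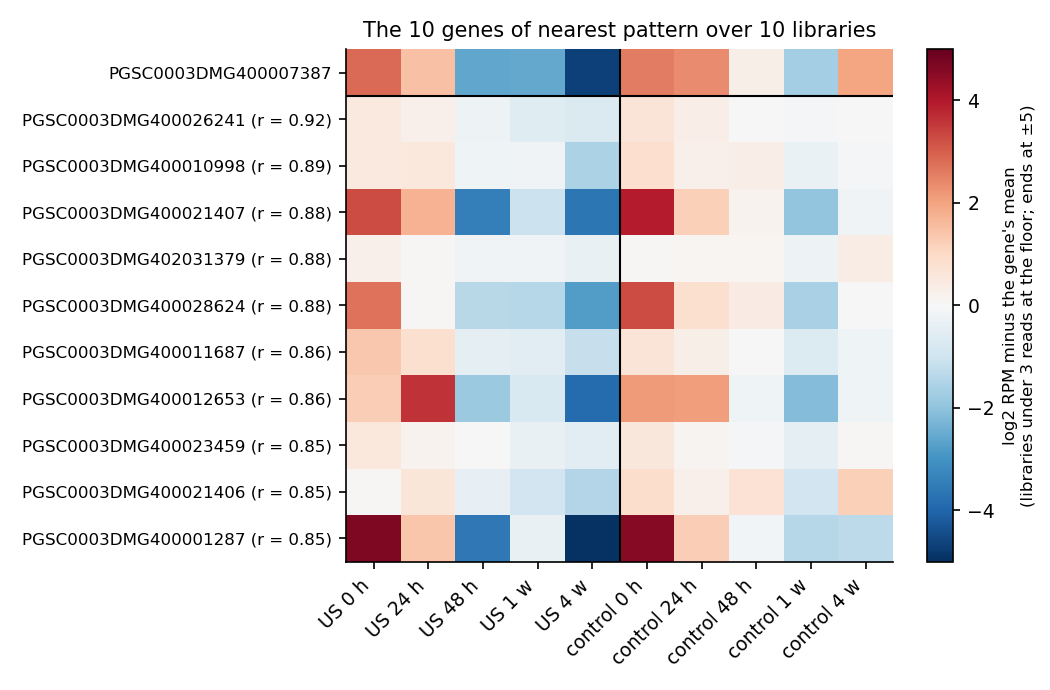
Log2 RPM minus the gene's own mean (colour) for the WRKY40 gene in the top row and the 10 genes of most similar course below it, with the 5 US libraries left of the 5 control libraries. US 4 w is blue or pale blue in every row, and the depth of colour shows that 4 of the 10 genes varied over at least 4 log2 units while the others varied over at most 2.68.

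The neighbours on chromosome 8 were looked at last, as the genomic context of the 4 w difference. The nearest feature, PGSC0003DMG400007374, starts 3625 bp after the gene and had 4266 reads in US 4 w, against 2505 reads in control 4 w, 1.98-fold higher (1.88 to 2.08). The next ones after it, PGSC0003DMG400007385 and PGSC0003DMG400007384, were 2.46-fold (1.50 to 4.14) and 1.84-fold (1.69 to 2.01) higher in US at 4 w. On this side the neighbours were thus higher in US, and 0 of the 3 passed the rule, beside 2.39% of all features in the higher direction.

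On the other side, 16295 bp before the gene, lie PGSC0003DMG402007388 and PGSC0003DMG401007388, which overlap on opposite strands and whose reads cannot be told apart because the strand used in counting was not given. PGSC0003DMG402007388 had 1888, 680, 81, 112 and 119 reads over the 5 times in US, against 2788, 597, 170, 168 and 710 reads in the control. Like the WRKY40 gene it was scarce at 48 h and 1 w in both treatments and rose from 1 w to 4 w in the control, and r between them was 0.82. Its control reads had already dropped to 597 at 24 h, where the WRKY40 gene had 457 against 380 at 0 h. At 4 w its 710 control reads were far below its 2788 at 0 h, while the WRKY40 gene had 345. At 4 w PGSC0003DMG402007388 was 5.14-fold lower in US (4.22 to 6.29), past the rule, and its partner was 4.04-fold lower (3.35 to 4.91), also past the rule. Beyond this pair, PGSC0003DMG400007375 was 1.15-fold lower in US at 4 w (1.13 to 1.17), and its r with the WRKY40 gene was -0.51. The overlapping pair was thus called lower in US at 4 w, and 0 of the other 4 features were called in either direction. Over all 21114 features 3.03% were called lower and 2.39% higher, so 0 of 4 says little about these features.

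**Figure D4:**
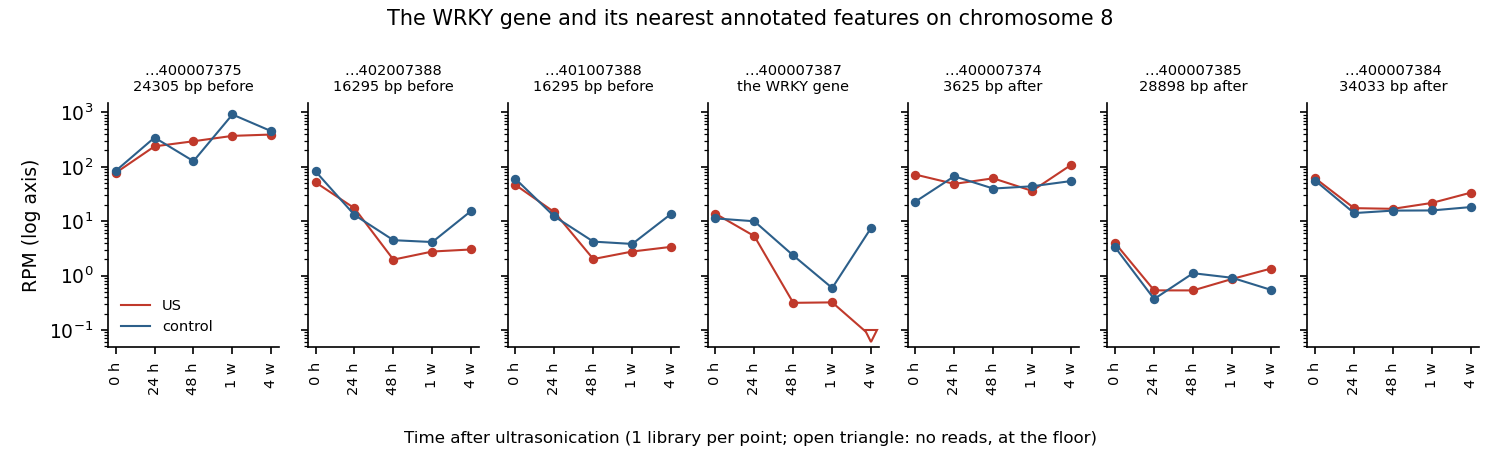
RPM on a log axis over the 5 times for the WRKY40 gene and the 3 nearest annotated features on each side, in the order of their position on chromosome 8, with US in red and control in blue and 1 library per point. In the control the overlapping pair 16295 bp before the gene was also higher at 4 w than at 1 w, while the 3 features after it were higher in US than in the control at that time.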

How the data were processed

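RNA-seq was run on 5 US and 5 control samples, each as 1 library. Per the study's methods and processing notes, the authors called bases with CASAVA 1.7, trimmed with Trim Galore 0.5.0, aligned to SolTub 3.0 with HISAT2 2.1.0 and quantified genes in SeqMonk. The deposited values are log2 RPM per feature, where the lowest value of a library stands for 0.9 reads and marks genes with none. Each library total was computed from its lowest value, and 99.98% of values then lay within 0.1 of a whole read. Summed gene reads were 1.71 to 1.77 times the totals, so parts of a read pair can count more than once, and intervals are too narrow to that extent. Whether reads were counted by strand is not given in the sources used here.

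Ratios of RPM carry exact conditional 95% intervals (Clopper-Pearson), levels carry exact Poisson intervals, and 3 reads took the place of 0. For spans, and for ranks and medians over all features, any count under 3 reads was set at 3. The rule of size used 1 RPM and a log2 difference of 2 on the deposited scale. Likeness was Pearson's correlation of the deposited log2 RPM over 10 libraries among genes averaging a log2 RPM of 0 or more. The genes named are the WRKY40 gene, the study's WRKY and other transcription factors, the defence genes past the rule at 4 w, the 10 nearest in course, 3 neighbours on each side, and the features with at least 1 RPM in all libraries but US 4 w, where they had 0 reads. The gene and the lists were chosen with earlier results of these data known. Names come from the study's annotation, 0 identifiers matched the RefSeq table directly, and 39 of 43 listed genes matched it through their protein. Alternatives were quantile and TMM scaling, median centring, other thresholds and other sets of libraries. Python 3.11.15, numpy 2.4.6, pandas 2.3.3, SciPy 1.17.1 and matplotlib 3.10.9 were used, and the code was tested on simulated data.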

Additional observations from a re-analysis of the deposited data

Results flagged for a closer look

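The log2 difference of the WRKY40 gene between US and control changed sign after 0 h. At 0 h it was 0.29, while 24 h gave -0.91 and 48 h gave -2.89. At 1 w the difference was -0.88, and at 4 w, with US set at 3 reads, it was -6.63. With 1 library per group the change of sign was not tested, and at 1 w the counting interval of the ratio included no difference.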

How the results depend on the processing

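Of 44 log2 differences of the WRKY40 gene recomputed under other scalings or on the deposited scale, 41 stayed within their counting interval and 2 changed sign. Both were the US step from 48 h to 1 w, whose interval includes no difference, at 0.03 on the deposited scale, -0.08 under quantile normalization and -0.0046 under TMM scaling. Outside their interval were the steps from 0 h to 24 h. The US step was -1.66 under quantile normalization against -1.37, and the control step was -0.50 under quantile normalization and -0.49 under TMM scaling against -0.17; the cause was not tested. The numbers of features past the rule, in order of time, were 797, 687, 913, 375 and 1144. With a log2 difference of at least 1 they were 4125, 3335, 4043, 1886 and 3821, and with at least 4 RPM they were 421, 217, 433, 114 and 548, as fewer or more features met the limit. The share of these that were lower in US moved by over 10 points at 24 h (40.1% with at least 4 RPM against 56.3%), at 48 h (80.8% with at least 4 RPM and 56.7% under quantile normalization against 66.8%) and at 1 w (78.9% with at least 4 RPM against 67.5%). Of the 10 genes of most similar course, 1 was among the nearest 10 with Spearman's correlation, 0 without US 4 w, 2 without the libraries at 0 h, 5 when all genes with reads entered, and 4 without control 24 h and US 48 h, a choice made after seeing the data. TMM factors were computed directly. Leaving out replicates was not possible with 1 library per group. Treatments can be paired by sampling time, but the gene was chosen from these values, so no fit with time as a block was made. The reads of the gene limit the US values from 48 h on, which rest on 13 reads or fewer.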
